A study of Homo sapiens with 6 samples.

Results

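NF-kB is a family of dimeric transcription factors, and 35 genes of its pathway were followed here: its subunits, the inhibitors and feedback proteins that restrain it, and genes it is known to switch on in activated B cells. The genes were given as a fixed list, chosen with earlier results of these data known, and were matched by symbol. All 35 were found among the 23619 symbols of the deposited tables, and 31 of them, together with 11307 genes in all, reached the minimum for testing. The data were 6 RNA-seq libraries of HG3, a lymphoblastoid B cell line derived from chronic lymphocytic leukaemia: 3 of control pools, which the design text calls parental, and 3 of pools resistant to fludarabine. Both groups hold pools 17, 18 and 28. By the title of the study, the pools came from transposon mutagenesis, in which a mobile element is inserted into genes at random, and resistance to fludarabine, a purine analogue, was selected afterwards. Each library stands for 1 pool of cells and not a clone. The labels used here state neither a drug dose nor whether drug was present at harvest.

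In resting cells NF-kB dimers are held in the cytoplasm by IkB proteins. Signals through CD40, Toll-like receptors or the B cell receptor activate IkB kinases, which mark IkB for destruction, and free dimers such as p50-RelA then enter the nucleus. A slower, non-canonical branch processes the NFKB2 product p100 and releases p52-RelB. Lymphoblastoid lines are B cells immortalised by Epstein-Barr virus, whose latent membrane protein imitates CD40, so these lines are known for steady NF-kB activity and for strong expression of costimulatory receptors and chemokines. Viral transcripts were not analysed here.

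NF-kB dimers bind the kappaB decamer, and many of these genes carry it just before their start. RefSeq promoters on GRCh38.p14 were matched by symbol for 28 of the 35 genes, and the 250 bases before each start were searched on both strands for the kappaB decamer consensus, with overlapping matches merged. It was present for 15 of the 28 genes (53.6%), against 11.8% of all 27305 genes of that RefSeq set and 15.8% of the 8143 tested ones. Counted by single promoter, 9.96% of all 35116 held it. Several of the 28 genes have more than 1 promoter in the set, and for each gene a match was counted if any promoter held it. A match describes letters only and says nothing about binding in these cells. The sequences below are those of an IkB inhibitor, a feedback enzyme, a subunit, a costimulatory gene and the kinase gene with the smallest p of those tested, each read 5′ to 3′ with kappaB matches in capitals. They lie at chr14:35404750-35404999, minus strand (NFKBIA), chr6:137867009-137867258, plus strand (TNFAIP3), chr10:102394328-102394577, plus strand (NFKB2), chr6:14117522-14117771, plus strand (CD83) and chr1:206470226-206470475, plus strand (IKBKE).
NFKBIA: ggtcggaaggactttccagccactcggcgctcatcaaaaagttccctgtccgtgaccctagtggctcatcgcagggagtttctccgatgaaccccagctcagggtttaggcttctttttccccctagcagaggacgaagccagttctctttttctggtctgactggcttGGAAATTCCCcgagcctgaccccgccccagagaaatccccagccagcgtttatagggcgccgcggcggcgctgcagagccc
TNFAIP3: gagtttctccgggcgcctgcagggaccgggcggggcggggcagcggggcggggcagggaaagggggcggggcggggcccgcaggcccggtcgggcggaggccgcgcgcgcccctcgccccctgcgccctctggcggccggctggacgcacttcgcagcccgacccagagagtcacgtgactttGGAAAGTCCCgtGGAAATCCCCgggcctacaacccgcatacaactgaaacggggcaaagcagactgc
NFKB2: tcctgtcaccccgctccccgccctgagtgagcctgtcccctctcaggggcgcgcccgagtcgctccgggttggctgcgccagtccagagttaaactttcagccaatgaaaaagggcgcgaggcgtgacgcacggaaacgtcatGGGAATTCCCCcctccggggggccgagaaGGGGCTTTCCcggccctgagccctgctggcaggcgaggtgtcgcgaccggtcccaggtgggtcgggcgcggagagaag
CD83: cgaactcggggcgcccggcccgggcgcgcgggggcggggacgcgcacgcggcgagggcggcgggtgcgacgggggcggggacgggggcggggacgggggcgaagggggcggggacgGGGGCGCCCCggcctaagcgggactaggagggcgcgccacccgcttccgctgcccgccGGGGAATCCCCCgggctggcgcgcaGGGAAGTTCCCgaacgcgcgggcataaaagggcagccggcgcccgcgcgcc
IKBKE: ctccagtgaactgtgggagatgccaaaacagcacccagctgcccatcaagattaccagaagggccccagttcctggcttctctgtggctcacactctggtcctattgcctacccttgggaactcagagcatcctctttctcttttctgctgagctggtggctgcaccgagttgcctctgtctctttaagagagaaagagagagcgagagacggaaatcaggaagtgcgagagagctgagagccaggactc
The window of NFKBIA held 1 match, 81 to 72 bases before the start. TNFAIP3 held 2, at 67 to 58 and at 55 to 46 bases before the start. NFKB2 held 2 stretches of matches, and CD83 held 3, all within 134 bases of the start. Of the 3 promoters of NFKB2 and the 2 of CD83, the window with the most matches is shown. IKBKE had none in this window.

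The libraries were those of B cells. Of 10 B cell markers 9 were tested, and their summed level lay between 731 and 1060 FPKM (fragments scaled by gene length and library size, the deposited unit) in controls and between 878 and 1158 in resistant libraries. Of 10 T cell markers 8 stayed under 1 FPKM in all 6 libraries, as did 7 of 7 NK cell markers, 7 of 9 stromal or epithelial ones and 7 of 11 monocyte, macrophage or dendritic cell ones. FCN1, CD163, CD1C and CLEC9A were listed at 0 throughout. The summed T cell list was 40.9 to 64.9 FPKM in controls and 21.3 to 36.3 in resistant libraries. LCK was its largest part, with 39.0 to 62.2 FPKM in controls and 20.4 to 26.6 in resistant libraries. TRAT1, the other tested gene of this list, had 1.48 to 2.43 FPKM in controls. In resistant 17, 18 and 28 it had 2.55, 11.7 and 0.368 FPKM. The part of this list in the results was not tested. An FPKM of 1 was reached by 10936 to 11331 genes in each library, and relative depth, read from the steps of low values, ran from 1 in control 17 to 1.301 in resistant 28. Resistant 18 stood apart from the other libraries, with a limma array weight of 0.162 against 1.03 to 1.93, so results are also given without it. In bulk RNA, fewer cells of a type and less RNA per cell cannot be told apart.

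**Figure D1:**
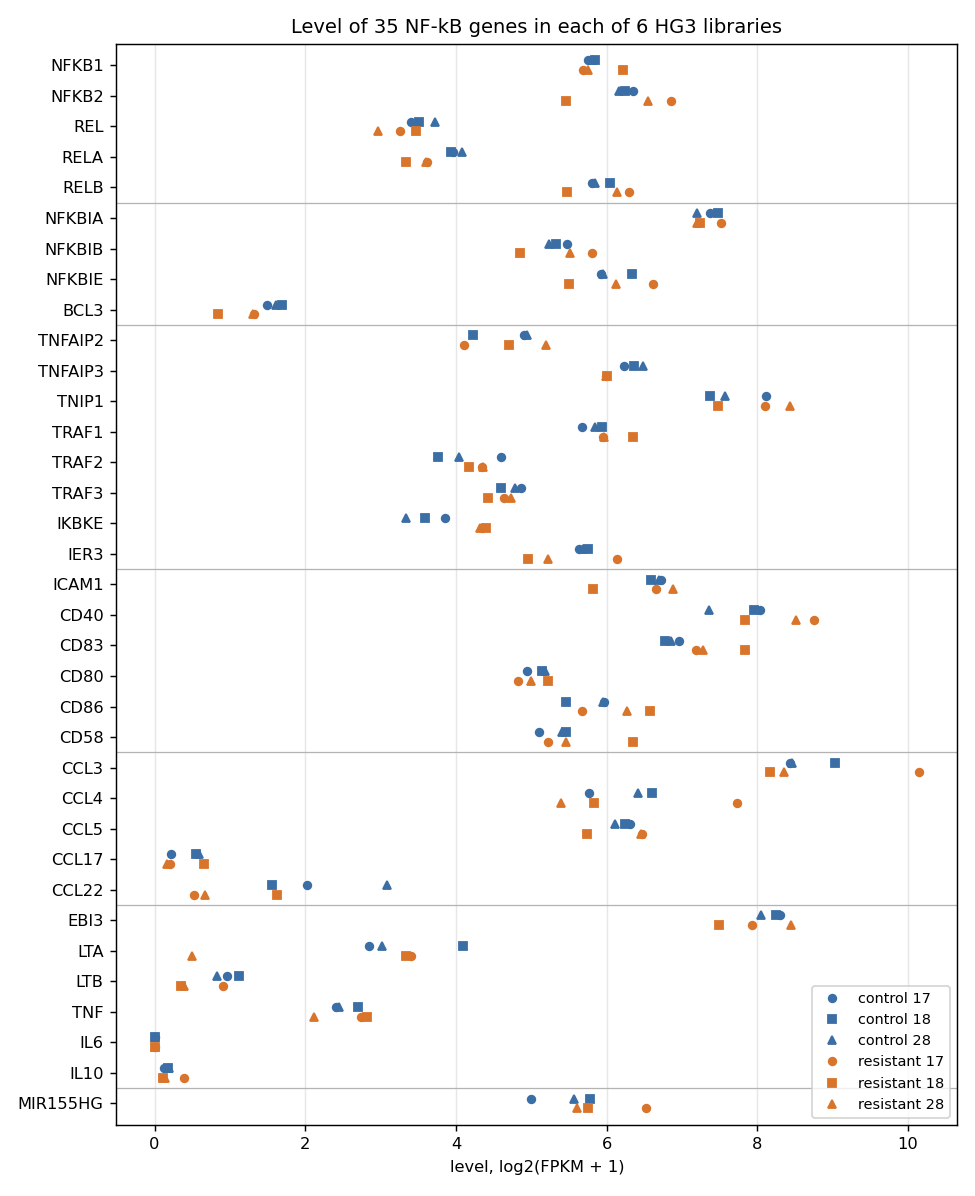
Level of each of the 35 genes, as log2(FPKM + 1), in 3 control libraries (blue) and 3 resistant libraries (orange), with the pool as the shape of the point and grey lines between roles. CCL3 reaches furthest to the right and IL6 lies at 0, and the resistant points are more spread than the control points for most genes.

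None of the NF-kB genes passed the test between resistant and control pools. With limma on log2(FPKM + 1) and adjustment over all genes tested, 0 of the 31 passed an adjusted p of 0.05, where 4 of 11307 genes did (0.0354%). Without resistant 18 it was again 0 of 31, and 13 genes in all (0.115%). At an unadjusted p under 0.05 there were 5 of 31 (16.1%), against 13.1% of all genes: IKBKE and CD83 with higher values in resistant libraries (6.45%, against 5.99%), and RELA, TNFAIP3 and CCL22 with lower ones (9.68%, against 7.14%). This count moved with single libraries. It was 1 of 31 (3.23%, against 6.45% of all genes) without control 28 and 8 of 31 (25.8%, against 23.3%) without resistant 18. It was 3 of 31 (9.68%) without control 17, control 18 or resistant 28, against 12.8%, 8.68% and 11.6% of all genes. The median log2 difference of the 31 was 0.03, beside 0.01 over all genes tested. Lowest was CCL22 at -1.28 and highest IKBKE at 0.76. Those 31 leave out CCL17, LTB, IL6 and IL10, whose levels were too low to test, and genes that reached the minimum mainly through 1 group are among them, so the counts describe the tested genes only.

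IKBKE encodes IKK-epsilon, a kinase related to the IkB kinases that also acts in interferon induction, and it had the smallest p. Its level was 13.4, 11.1 and 9.07 FPKM in controls 17, 18 and 28 against 19.4, 20.1 and 18.9 FPKM in resistant libraries 17, 18 and 28. All resistant libraries lay above all controls and close to each other. The means were 11.2 ± 2.17 and 19.4 ± 0.592 FPKM (SD, n = 3 each), 1.74-fold higher in resistant libraries. Its limma log2 difference of 0.76 (SE 0.18) did not pass (limma adjusted p = 0.192). With array weights, which count resistant 18 for less, it did (limma adjusted p = 0.0426; 0.0426 to 0.923 over all alternatives, 301 of 11307 genes or 2.66% passing with the weights). The pools differed by 0.50, 0.81 and 0.98 on the log2 scale for pools 17, 18 and 28.

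**Figure D2:**
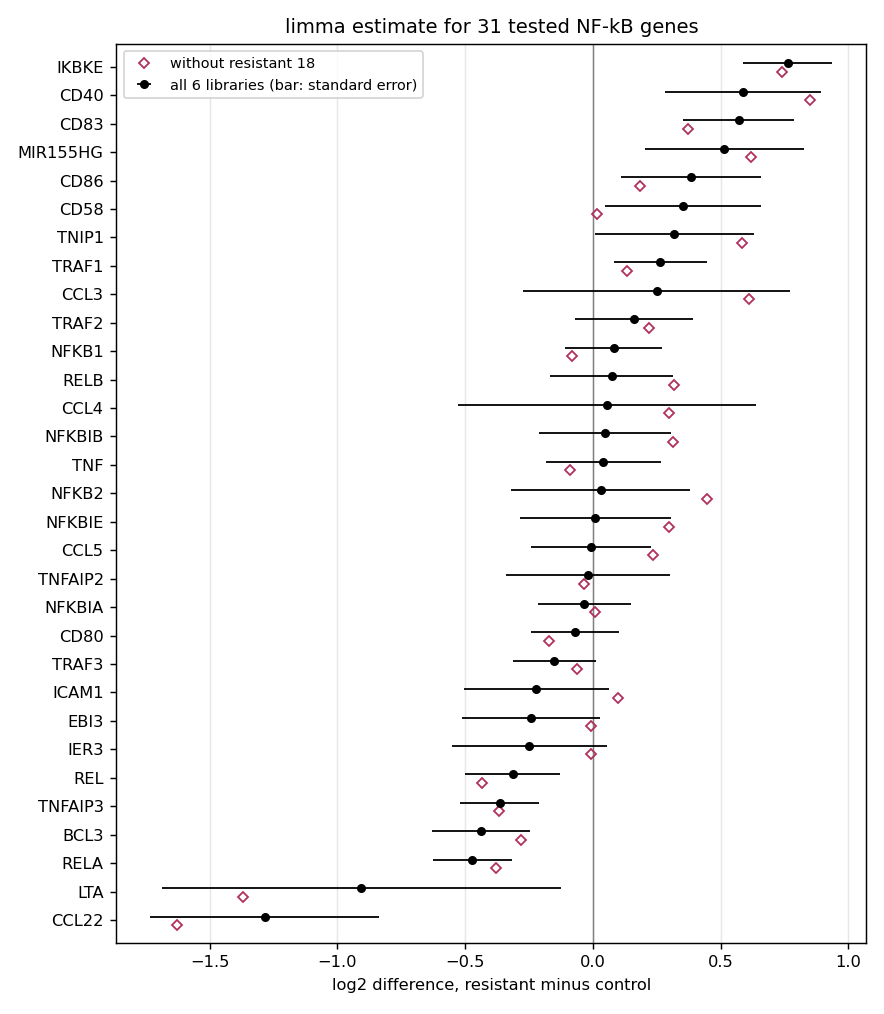
limma log2 difference, resistant minus control, for the 31 tested genes, with its standard error over 6 libraries (black) and the estimate without resistant 18 (open diamonds). IKBKE is at 0.76 with both points close together, whereas CD58 moves from 0.35 to 0.02 and NFKB2 from 0.03 to 0.45 when resistant 18 is left out.

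Of the subunit genes, RELA, which encodes the transactivating subunit p65 of the canonical dimer, had lower values in resistant libraries. It had 14.5, 14.3 and 15.97 FPKM in controls 17, 18 and 28, whereas resistant 17, 18 and 28 had 11.3, 9.11 and 11.2. The groups did not overlap, and the mean was 1.42-fold lower (limma log2 difference -0.47, SE 0.15, limma adjusted p = 0.285). REL, the c-Rel subunit typical of lymphocytes, had 9.60, 10.4 and 12.2 FPKM in controls against 8.52, 10.1 and 6.82 in resistant libraries. Its groups overlapped, and its lowest value was that of resistant 28.

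The precursor genes and RELB were more abundant than RELA and REL. NFKB1, encoding p105 and p50, had 52.8, 56.6 and 55.2 FPKM in controls 17, 18 and 28 against 50.5, 73.2 and 53.0 in resistant libraries. NFKB2, encoding p100 and p52, had 80.6, 74.6 and 70.8 FPKM in controls against 115, 42.9 and 92.2 in resistant libraries. For RELB, the partner of p52, the values were 54.8, 65.1 and 56.5 FPKM in controls against 77.3, 43.6 and 69.7 in resistant libraries. Resistant 18 was thus the highest library for NFKB1 and the lowest for NFKB2 and RELB, while resistant 17 and 28 were above all controls for the latter pair. Without resistant 18 the limma log2 differences of NFKB2 and RELB went from 0.03 and 0.07 to 0.45 and 0.32 (limma adjusted p = 0.167 and 0.236).

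Among the IkB genes, NFKBIA was the most abundant. This gene encodes IkB-alpha, the inhibitor that NF-kB itself induces, and it had 165, 178 and 146 FPKM in controls 17, 18 and 28 against 182, 150 and 146 in resistant libraries (limma log2 difference -0.03, SE 0.18). NFKBIB, encoding IkB-beta, had 43.4, 39.3 and 36.7 FPKM in controls against 55.2, 28.0 and 44.7 in resistant libraries. NFKBIE, encoding IkB-epsilon, had 59.6, 79.6 and 61.1 FPKM in controls against 96.7, 44.3 and 68.9 in resistant libraries. As for NFKB2, resistant 17 was the highest library for both and resistant 18 the lowest. BCL3, an atypical IkB protein that works in the nucleus with p50 and p52, was low, with 1.81, 2.22 and 2.05 FPKM in controls against 1.504, 0.795 and 1.47 in resistant libraries. Its groups did not overlap (limma log2 difference -0.44, SE 0.19, limma adjusted p = 0.387).

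TNFAIP3 encodes A20, the ubiquitin-editing enzyme that shuts off signalling to NF-kB and is itself an NF-kB target. It had 74.3, 81.2 and 88.4 FPKM in controls 17, 18 and 28 against 62.4, 63.2 and 62.8 FPKM in resistant libraries. The resistant values were nearly equal and all below the controls, 1.29-fold lower in the mean (limma log2 difference -0.36, SE 0.15, limma adjusted p = 0.379). TRAF1, an adaptor of TNF receptors strongly induced by NF-kB, had 50.1, 60.5 and 56.5 FPKM in controls against 60.7, 80.4 and 61.3 in resistant libraries. These groups also did not overlap, by a narrow margin (limma log2 difference 0.26, SE 0.18, limma adjusted p = 0.571). For the feedback and signalling genes other than IKBKE, TNFAIP3 and TRAF1 the groups overlapped. TRAF3, which holds back the non-canonical branch, ranged from 20.5 to 28.0 FPKM, and its partner TRAF2 from 12.6 to 23.1. TNIP1, which works with A20, was highest in resistant 28 with 344 FPKM, against 276, 165 and 188 in controls 17, 18 and 28. TNFAIP2 ranged from 16.3 to 35.7 FPKM, and IER3, an early response gene, from 30.025 in resistant 18 to 69.5 in resistant 17.

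Non-overlapping groups were about as frequent among these genes as among all genes tested. Every resistant library was above every control for 3 of 31 genes (TRAF1, IKBKE and CD83; 9.68%), against 10.1% of all genes tested. All resistant libraries were below the controls for 3 of 31 (RELA, BCL3 and TNFAIP3; 9.68%), against 11.1%. The difference had 1 sign in all 3 pools for 4 genes with higher values, TRAF1, IKBKE, CD83 and CD58 (12.9%, against 18.9% of all genes). With lower values there were 5, REL, RELA, BCL3, TNFAIP3 and TRAF3 (16.1%, against 18.7%). Some of these differences were small, such as those of CD58 (0.04) and TRAF3 (-0.05) in pool 28 and that of REL in pool 18 (-0.03).

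Among the costimulatory and adhesion genes, CD40, the receptor for T cell help, had 262, 246 and 163 FPKM in controls 17, 18 and 28 against 432, 228 and 363 in resistant libraries. Resistant 17 and 28 were above all controls, and resistant 18 was not. With all libraries the limma estimate was 0.59 (SE 0.31, limma adjusted p = 0.458). Without resistant 18 it was 0.85 (limma adjusted p = 0.132). CD83, a marker of activated B cells, had 123, 108 and 114 FPKM in controls against 145, 227 and 154 in resistant libraries, with no overlap. Its mean was 1.52-fold higher (limma log2 difference 0.57, SE 0.22, limma adjusted p = 0.340), and the estimate was 0.37 without resistant 18.

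CD86, a ligand of CD28, had 61.3, 42.9 and 60.7 FPKM in controls 17, 18 and 28 against 49.9, 94.4 and 76.3 in resistant libraries. CD58, the ligand of CD2, had 33.3, 43.1 and 41.5 FPKM in controls against 36.4, 80.8 and 42.8 in resistant libraries. For both, resistant 18 was the highest library. The limma log2 difference of CD58 was 0.35 with it and 0.02 without it. CD80, the other CD28 ligand, ranged only from 27.4 to 36.4 FPKM. ICAM1, the adhesion ligand of LFA-1 and a classical NF-kB target, had 95.5 to 117 FPKM in 5 libraries and 55.3 in resistant 18.

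CCL3 and CCL4, the chemokines MIP-1alpha and MIP-1beta that activated B cells and leukaemia cells secrete, were high in a single resistant library. CCL3 had 344, 522 and 350 FPKM in controls 17, 18 and 28 against 1134, 286 and 326 in resistant libraries. CCL4 had 53.5, 96.4 and 84.4 FPKM in controls against 211, 56.1 and 41.2 in resistant libraries. Resistant 17 was 3.29-fold above control 17 for CCL3 and 3.94-fold for CCL4, while in pools 18 and 28 both were lower in the resistant library. The 3 pools thus gave log2 differences of 1.72, -0.86 and -0.10 for CCL3 and of 1.96, -0.77 and -1.02 for CCL4. Over all libraries their limma log2 differences were 0.25 (SE 0.52, limma adjusted p = 0.875) and 0.06 (SE 0.58, limma adjusted p = 0.980). Without resistant 17 these became -0.38 and -0.65.

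Both chemokine genes have near-identical copies, among which reads may have been divided, so their levels are uncertain. The copy CCL3L3 was also highest in resistant 17, with 4.23, 6.99 and 4.39 FPKM in controls 17, 18 and 28 against 10.6, 3.35 and 2.26 in resistant libraries. Its log2 difference in pool 28 was -0.72, against -0.10 for CCL3. CCL4L2 was listed at 0 in all 6 libraries, and CCL3L1 at about 0.004. Monocytes also make these chemokines. The 11 markers of monocytes, macrophages or dendritic cells summed to 52.3 FPKM in resistant 17, more than in any other library, against 21.3 to 31.2 in controls. S100A9 was the main part of this sum, with 34.1 FPKM in resistant 17 against 0.320 to 8.03 in the other libraries. CD14 (0.141 FPKM) and S100A8 (0.194) were also highest there, both being at 0 in all controls, while ITGAM (1.17) was lowest there and LYZ (0.238) and CSF1R (1.07) lay within the range of the controls. FCN1, CD163, CD1C and CLEC9A were at 0, and LAMP3, at 15.4 FPKM, was within the range of the controls as well. The part of these markers in the chemokine values was not tested.

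CCL22 and CCL17 are ligands of CCR4, which draw helper and regulatory T cells. CCL22 had 3.06, 1.94 and 7.496 FPKM in controls 17, 18 and 28 against 0.437, 2.08 and 0.589 in resistant libraries. It was 7.01-fold lower in resistant 17 and 12.7-fold lower in resistant 28 than in the controls of those pools, with hardly any difference in pool 18. Its limma log2 difference was -1.28 (SE 0.45, limma adjusted p = 0.300), on a scale whose pseudocount shrinks low genes. CCL17 was not tested, with 0.158, 0.461 and 0.507 FPKM in controls 17, 18 and 28 against 0.151, 0.581 and 0.121 in resistant libraries. CCL5, or RANTES, had 78.5, 74.96 and 68.3 FPKM in controls against 87.6, 52.3 and 86.6 in resistant libraries, again with resistant 18 lowest.

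Of the cytokine genes, EBI3, the subunit shared by IL-27 and IL-35, was among the highest of the list, at 263 to 315 FPKM among controls and at 178 to 348 among resistant libraries. TNF stayed between 3.32 and 6.08 FPKM. LTA, encoding lymphotoxin alpha, was singled out after its values were seen: it had 6.18, 16.1 and 7.08 FPKM in controls 17, 18 and 28 against 9.54, 9.11 and 0.414 in resistant libraries. Resistant 28 was 17.1-fold below control 28, while the other resistant libraries lay within the range of the controls. LTB, its membrane partner, lay at 0.773 to 1.18 FPKM among controls and at 0.279 to 0.871 among resistant libraries and was not tested. IL10 had at most 0.306 FPKM, and IL6 was listed at 0 in all libraries.

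MIR155HG is the host transcript of miR-155, a microRNA that NF-kB and AP-1 induce in activated B cells and that is abundant in B cell lymphomas. Its level was 30.9, 54.1 and 46.5 FPKM in controls 17, 18 and 28 against 91.3, 53.1 and 47.7 in resistant libraries. Resistant 17 was 2.96-fold above control 17, and the other resistant libraries lay within the range of the controls. The limma estimate was 0.51 (SE 0.31, limma adjusted p = 0.513), but 0.23 without resistant 17. The strands made from this transcript are shown because their targets are set by the seed, bases 2 to 8, in capitals, as RefSeq gives them on GRCh38.p14.
hsa-miR-155-5p: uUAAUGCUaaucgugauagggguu
hsa-miR-155-3p: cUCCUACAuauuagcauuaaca
The level of the mature microRNA was not analysed here.

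**Figure D3:**
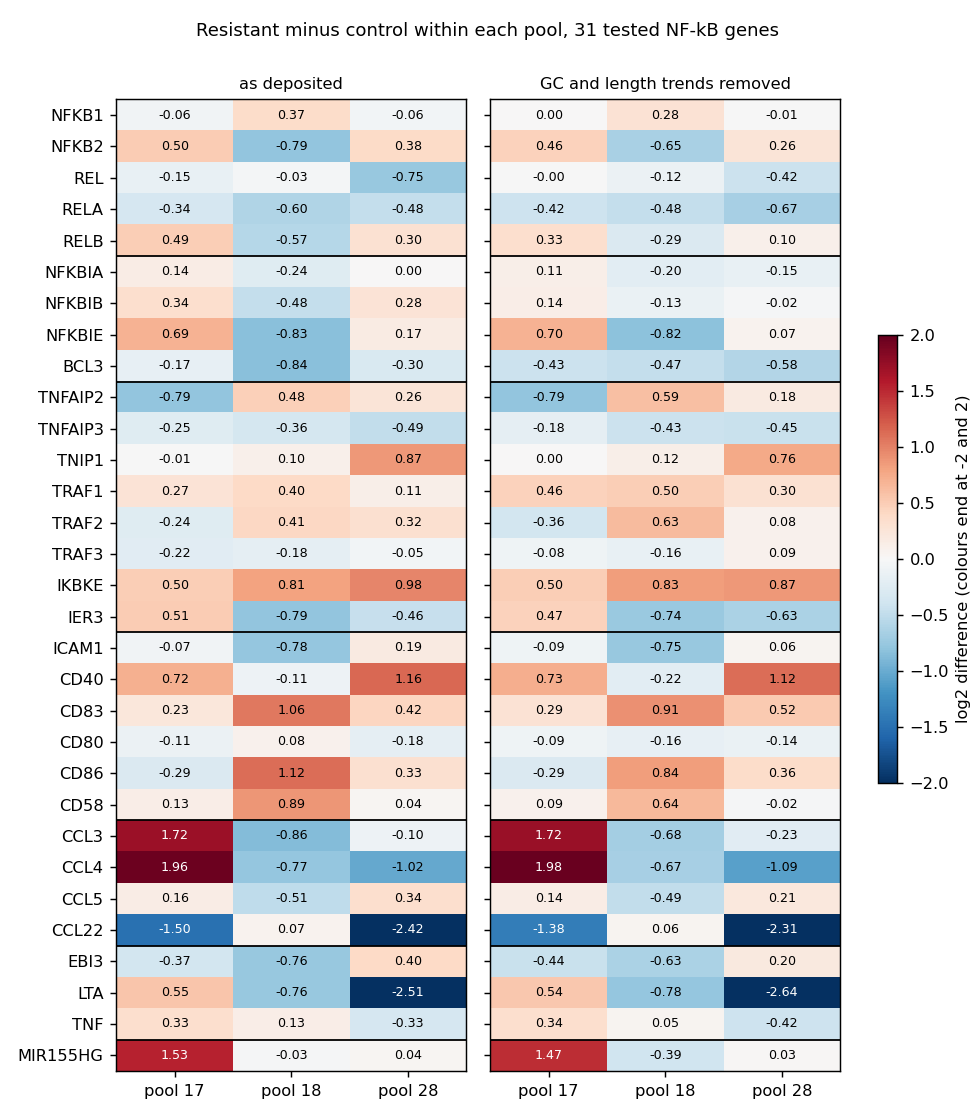
Resistant minus control within each pool for the 31 tested genes, as log2(FPKM + 1) differences from the deposited values (left) and with trends in GC content and transcript length removed (right). Pool 17 has its strongest values at CCL3, CCL4 and MIR155HG, pool 18 has a block of negative values from NFKB2 to BCL3, and pool 28 has its lowest values at CCL22 and LTA.

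For most of the NF-kB genes the resistant libraries were spread more widely than the controls. The SD of log2(FPKM + 1) was larger among resistant than among control libraries for 27 of 31 genes (87.1%), against 70.1% of all genes tested. Its median was 0.46 among resistant libraries and 0.14 among controls, beside 0.29 and 0.18 over all genes tested. Resistant 18 was the lowest of all 6 libraries for 12 of 31 genes (38.7%, against 25.3%) and the highest for 8 (25.8%, against 35.4%). Resistant 17 was the highest for 11 (35.5%, against 14.9%) and the lowest for 5 (16.1%, against 18.7%), and resistant 28 was the highest for 4 (12.9%, against 12.9%) and the lowest for 4 (12.9%, against 17.4%). For pools 17 and 28 alone, the SD was larger among resistant than among control libraries for 17 of 31 genes (54.8%), against 44.8% of all genes tested. Within each pool there was 1 library per group and so no test. In pool 17, 8 of 31 genes were higher by over 0.5 on the log2 scale (25.8%, against 9.94% of all genes) and 2 were lower (6.45%, against 9.3%). The higher ones were NFKB2, NFKBIE, IER3, CD40, CCL3, CCL4, LTA and MIR155HG, and the lower ones TNFAIP2 and CCL22. Some were only just over the cut, such as NFKB2 (0.503), IER3 (0.509) and LTA (0.553). In pool 28, 3 were higher (9.68%, against 15.7%), TNIP1, IKBKE and CD40, and 4 were lower (12.9%, against 15.8%), REL, CCL4, CCL22 and LTA.

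Pool 18 had 12 of 31 genes lower by over 0.5 (38.7%, against 19.7% of all genes). They were the subunit genes NFKB2, RELA and RELB, the inhibitor genes NFKBIE and BCL3, and IER3, ICAM1, CCL3, CCL4, CCL5, EBI3 and LTA. It had 4 higher (12.9%, against 21.3%): IKBKE, CD83, CD86 and CD58. The IkB group had a median of -0.65 in pool 18, beside 0.24 and 0.09 in pools 17 and 28. In the same order of pools, the median was -0.57, -0.06 and -0.06 for subunits and 0.49, 0.03 and 0.26 for costimulatory and adhesion genes. Higher in pools 17 and 28 but lower in pool 18 were 8 of 31 (25.8%, against 13.9% of all genes): NFKB2, RELB, NFKBIA, NFKBIB, NFKBIE, CD40, CCL5 and MIR155HG. Some of these differences were small, such as that of CD40 in pool 18 (-0.11) and those of MIR155HG in pools 18 and 28 (-0.03 and 0.04). The opposite pattern was seen for 3 of 31 (9.68%, against 17.6%): NFKB1, CD80 and CCL22.

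GC content moved with the differences, most in pool 18. Across the 10642 tested genes with a GC content and length from GENCODE v29 transcripts, the difference in pool 18 had a Pearson r of -0.25 with GC content, against 0.08 in pool 17 and 0.18 in pool 28. Across the 31 NF-kB genes it was -0.47 in pool 18, and -0.25 there with trends in GC content and length removed. With log2 transcript length, r over the 10642 genes was -0.14, 0.09 and -0.23 in pools 17, 18 and 28. Over the 31 NF-kB genes it was -0.44, 0.29 and -0.08. Genes of 1 library pair share its depth and base composition, so these are descriptions. The genes with lower values in pool 18 were mostly GC-rich, such as NFKB2 (61.9%) and NFKBIE (58.4%), and those with higher values were CD83 (46.5%), CD86 (42.0%) and CD58 (39.0%), with IKBKE (58.9%) as the exception. Of the 31, 24 lay above the median GC content of tested genes, 49.7%.

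With trends in GC content and length removed from each library, 8 of 31 genes were still lower by over 0.5 in pool 18 (25.8%, against 17.8% of all genes), among them NFKB2 (-0.65), NFKBIE (-0.82), ICAM1 (-0.75) and EBI3 (-0.63). RELB moved to -0.29, BCL3 to -0.47, RELA to -0.48 and CCL5 to -0.49. There were 6 higher (19.4%, against 18.6%), with CD83 at 0.91, CD86 at 0.84 and CD58 at 0.64. In pool 17, 6 were higher (19.4%, against 8.36%) and 2 lower (6.45%, against 7.64%), and CCL3, CCL4 and MIR155HG stood at 1.72, 1.98 and 1.47. In pool 28, 4 were higher (12.9%, against 13.9%) and 6 lower (19.4%, against 13.4%), with CCL22 at -2.31 and LTA at -2.64. IKBKE had 0.50, 0.83 and 0.87 in pools 17, 18 and 28. CD58 and TRAF3, of 1 sign in all 3 pools as deposited, had -0.02 and 0.09 in pool 28. CD80 and TNIP1 then had 1 sign in all 3 pools (0.00037 for TNIP1 in pool 17).

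**Figure D4:**
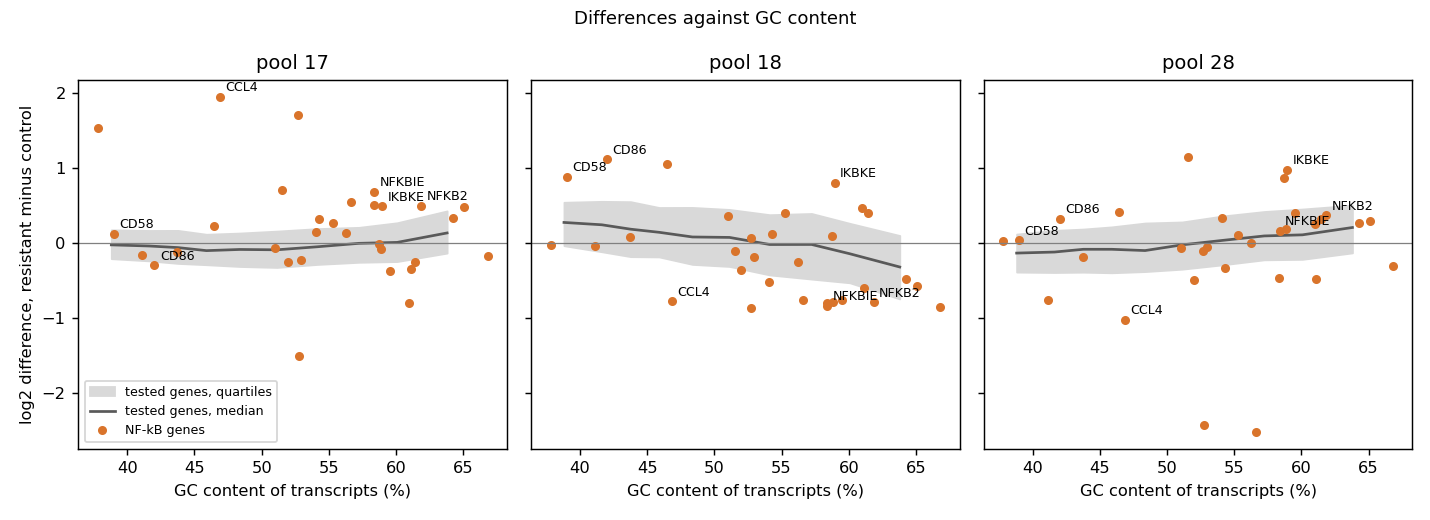
Difference of each NF-kB gene within a pool (orange points, log2 scale) against the GC content of its transcripts in percent, over the median (line) and quartiles (grey band) of all tested genes in 10 equal groups of GC content. The line falls from left to right in pool 18 and rises in pool 28, and NFKB2, NFKBIE and CCL4 lie below the band in pool 18.

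The rest of the pathway was read from 4 further lists, and 0 of their 95 tested genes passed the limma adjusted threshold, where 10 had an unadjusted p under 0.05 (10.5%, against 13.1% of all genes). With array weights 3 of the 95 passed (3.16%, against 2.66% of all genes): TRADD (limma adjusted p = 0.0327), NKIRAS2 (0.0363) and BCL2A1 (0.0439). Over all alternatives the limma adjusted p of each reached up to 0.923. Among 11 genes of the IkB kinase complex and the kinases around it, IKBKG, the scaffold NEMO, averaged 7.92 ± 3.33 FPKM among controls and 13.2 ± 0.849 among resistant libraries (limma log2 difference 0.73, limma adjusted p = 0.304). TAB2, which links ubiquitin chains to the kinase TAK1, differed by -0.44 (limma adjusted p = 0.384). Among 19 receptor-proximal adaptors, TRADD, the death domain adaptor of the TNF receptor, differed by 0.81 (limma adjusted p = 0.297). Its differences in pools 17, 18 and 28 were 1.07, 0.11 and 1.25. IRAK1, a kinase downstream of MYD88, differed by 0.39 (limma adjusted p = 0.501), with 0.78, -0.27 and 0.67 in those pools.

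Among 18 further negative regulators, 6 had higher values in all 3 pools (33.3%, against 18.9% of all genes) and 0 had lower ones (against 18.7%). The 6 were NFKBIL1, NKIRAS1, NKIRAS2, CYLD, OTUD7B and USP18. In the list of the IkB kinase complex 3 of 11 had higher values in all 3 pools (27.3%) and 1 lower ones (9.09%). Of the adaptors 1 of 19 had higher values (5.26%) and 2 had lower ones (10.5%). Over the 4 further lists together it was 20 of 95 with higher values (21.1%) and 9 with lower ones (9.47%). With GC and length trends removed, NKIRAS1 and CYLD had -0.06 and -0.07 in pool 18. FAM105B and N4BP1 then had higher values in all 3 pools. NKIRAS2, a Ras-like protein that binds IkB, averaged 7.91 ± 2.02 FPKM among controls and 15.9 ± 1.58 among resistant libraries (limma log2 difference 0.94, SE 0.20, limma adjusted p = 0.179), and USP18 differed by 0.46 (limma adjusted p = 0.359). Among 47 other target genes, BCL2A1, which protects B cells from apoptosis, differed by 0.84 (limma adjusted p = 0.184) and the adhesion receptor gene CD44 by -1.24 (limma adjusted p = 0.192). In that list 10 genes had higher values in all 3 pools (21.3%, against 18.9%) and 6 had lower ones (12.8%, against 18.7%).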

How the data were processed

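The authors deposited 1 FPKM value, a fragment count scaled by length and library size, per the file names, for each of 23619 gene symbols, with commas as decimal marks. The submitters' processing notes list hg19 and the tools DESeq2, HTSeq 0.6.1, Cufflinks 2.2.1 and TopHat2 2.0.4, with no roles. Total RNA had been extracted with a column kit, per the labels' protocols. No counts were used, so no count model was fitted and absolute depth is unknown. Relative depth was the shift at which ratios of low FPKM became ratios of whole numbers up to 4, within 0.02 on the log2 scale, which held for 64.4% to 71.3% of them.

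limma 3.58.1 (R 4.3.3) tested log2(FPKM + 1) of the genes that reached an FPKM of 1 in 3 or more of 6 libraries (mean-variance trend, two-sided, Benjamini-Hochberg over all genes, threshold 0.05); the functions were tested on simulated data. The pseudocount understates differences of low genes. Folds are ratios of FPKM, of means unless a pool is named, and ± is the SD. The sources do not say that the pools were separate from the start, so p-values reflect only how far these libraries vary. The pools are called pairs in the design text; deviations of same-numbered libraries from their group means correlated at 0.148, 0.0892 and -0.0243 for pools 17, 18 and 28, and the reported fit had no block. To remove GC and length trends, a loess fit (span 0.5) on both was subtracted within each library for 10642 genes (94.1%) matched to GENCODE v29. Coordinates are given only for RefSeq sequences on GRCh38.p14, since the authors' build was hg19.

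The 35 genes and the pathway lists were chosen with earlier results of these data known. By rule, values in every library were given for the subunits, IkB genes and chemokines and for the 12 tested genes of smallest p, and the 2 of smallest p were named from each further list. Alternatives were other pseudocounts (0.1, 5), no filter or a mean FPKM of at least 5, quantile or median scaling, array weights, the pool as a block, each library or pool left out, and, chosen after the data were seen, the GC and length fit.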

Additional observations from a re-analysis of the deposited data

How the results depend on the processing

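Of the 31 tested NF-kB genes, 12 kept the sign of their limma log2 difference under all 19 alternatives, and BCL3 and CCL22 did under the 18 that tested them (a mean FPKM of at least 5 left them out). Wherever tested, 21 kept it under the alternatives with all 6 libraries. The number of genes passing limma's adjusted threshold was 4, 301 with array weights, 2 with GC and length trends removed, and 3 to 18 with a library or pool left out (13 without resistant 18 and 18 without pool 18). Among the NF-kB genes it was 0 (5 at an unadjusted p under 0.05, 1 to 8 over the alternatives), 1 with array weights, and 0 to 0 with a library or pool left out. With the pool number as a replicate block 3 genes passed and 0 of the NF-kB genes (3 at an unadjusted p under 0.05), and the block with GC and length trends removed left 0 genes (1614 of 10642 at an unadjusted p under 0.05); the block changed no call among the NF-kB genes. In pool 17, 5 NF-kB genes in place of 8 were higher by over 0.5 with a pseudocount of 5, and 1 in place of 2 was lower among genes of mean FPKM of at least 5. The causes of these shifts were not tested.

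Signs reversed as follows. With quantile normalization the log2 differences were -0.018 for NFKB1, -0.093 for NFKB2, -0.039 for RELB, -0.053 for NFKBIB, -0.11 for NFKBIE and -0.068 for CCL4. With array weights they were -0.074 for NFKB1, 0.0033 for IER3, 0.055 for ICAM1, 0.20 for CCL5 and -0.071 for TNF. With GC and length trends removed, with or without the block, they were -0.0033 for NFKBIB, -0.019 for NFKBIE and -0.0096 for TNF, and with median scaling -0.011 for NFKBIE. With a library or pool left out the range was -0.083 to 0.18 for NFKB1, -0.25 to 0.45 for NFKB2, -0.13 to 0.39 for RELB, -0.13 to 0.072 for NFKBIA, -0.16 to 0.32 for NFKBIB and -0.33 to 0.43 for NFKBIE. It was -0.28 to 0.37 for TNFAIP2, -0.020 to 0.39 for TRAF2, -0.63 to 0.023 for IER3, -0.44 to 0.097 for ICAM1, -0.17 to 0.025 for CD80, -0.48 to 0.81 for CCL3, -0.89 to 0.59 for CCL4 and -0.18 to 0.25 for CCL5. It was -0.57 to 0.014 for EBI3, -1.64 to 0.049 for LTA and -0.10 to 0.26 for TNF.

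Absolute depth is unknown, which limits genes listed near 0 such as IL6, IL10 and CCL17, and 3 libraries per group limit the precision of all estimates.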

Other observations

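The deposited tables also hold a row for the microRNA gene MIR155 itself, which lies inside its host transcript. It was listed at 0 FPKM in 4 libraries, at 4251 in resistant 17 and at 2645 in resistant 28. FPKM of so short a gene is scaled up by its length, and reads of the host transcript cannot be separated from it, so no comparison was made.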
